A study of Rattus norvegicus with 6 samples.

Results

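The genes described here act in copying the chromosomes, in holding them at the centromere and in pulling them apart at cell division. They were chosen by name: every gene whose symbol starts with Cenp, Mcm and a digit, Kif, Ccna, Ccnb, Aurk or Bub, and 11 further genes, Top2a, Mki67, Nusap1, Cdk1, Ube2c, Smc2, Smc4, Ckap2, Pcna, Tyms and Rrm2. Of 16383 genes with values, 88 were members. The rule reads names and no measured value. By what they are known to do, 16 belong to the centromere and kinetochore, 12 to replication, 12 to the mitotic kinesins, 6 to chromosome structure and the spindle, and 9 to cyclins, kinases and the checkpoint. Another 27 are kinesins of transport and of cilia, with Kif1bp and Kifap3 counted among them as partners of kinesins. The last 6, Cenpj, Cenpv, Ccna1, Ccnb1ip1, Mcm3ap and Aurkc, matched the rule by name and were placed in none of these roles. Cenpq, Cenps, Cenpx and Ccnb2 were not analysed here.

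Lungs came from Sprague Dawley rats 8 to 10 weeks old, 3 that received 1 dose of bleomycin (BLM) of 5 mg/kg through the trachea and 3 that received an equal volume of saline, all taken on day 28. BLM breaks DNA strands, injures the epithelium of the lung and leaves scar tissue. Small pieces of perfused lung were digested with enzymes and strained, red blood cells were lysed, and the cells of each rat were captured in the BD Rhapsody system. In that system each mRNA molecule is tagged with a unique molecular identifier (UMI) and read near its 3' end, so that copies made by PCR are counted as 1 molecule. Each sample is thus a part of the lung of 1 rat, and its cell types need not stand in the proportions of the whole organ.

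Before a cell divides, the Mcm2 to Mcm7 helicase opens the DNA, Pcna clamps the polymerase to it, and Tyms and Rrm2 supply nucleotides. In mitosis, Cdk1 with its cyclins starts the process, condensins with Smc2 and Smc4 fold the chromosomes, Cenp proteins build the kinetochore, and mitotic kinesins move chromosomes and shape the spindle. Transcripts of the mitotic genes appear mainly in dividing cells, and in the lung alveolar macrophages can renew themselves by dividing in place. Most kinesins of the transport group carry cargo in cells that do not divide, and some build or move cilia.

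The 25547 cells, 10538 from the control and 15009 from the BLM-treated lungs, held 23608949 and 33444381 UMIs. A rat gave 2568 to 7481 cells and a median of 1066 to 1840 UMIs per cell. Members together took 2847, 3408 and 2960 counts per 1000000 UMIs (CPM, of all UMIs of the cells summed) in the control lungs and 2799, 2785 and 2623 in the BLM-treated lungs. Of 25232 barcodes, 314 occurred in more than 1 library, and all cells were kept. Cells were clustered without 200 cell cycle genes, members included, so that a dividing cell could stay with its own type. This gave 28 clusters, 25 of them named from markers, in 21 classes. The 4 alveolar macrophage clusters had between 5 and 7 of 8 measured markers higher than in other cells. In 13 classes every rat had at least 20 cells, and these were tested. The mix of classes itself differed: alveolar macrophages made up 39.8%, 33.1% and 41.3% of the cells in control rats 1 to 3 and 16.4%, 15.2% and 16.7% in BLM-treated rats 1 to 3. Interstitial macrophages made up 1.93%, 2.06% and 1.54% of control cells and 7.14%, 12.6% and 7.52% of BLM-treated cells.

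The start regions of 5 members are shown first as examples, Top2a, Mki67 and Cdk1 of mitosis and Mcm5 and Pcna of replication. Each run is 300 bases of RefSeq sequence on the rat build GRCr8, from 250 bases before to 50 bases after the gene's start, 5' to 3'. Top2a, the topoisomerase that untangles sister chromatids, lies at chr10:84473044-84473343 on the minus strand. Mki67, the coat of mitotic chromosomes, lies at chr1:199952544-199952843 on the minus strand, and Cdk1 at chr20:19265043-19265342 on the plus strand. Mcm5 of the helicase lies at chr19:13488563-13488862 on the plus strand, and Pcna at chr3:139955771-139956070 on the minus strand. Capitals mark motifs on either strand: the CCAAT box (CCAAT), the cell cycle genes homology region or CHR (TTTGAA or TTCGAA) and the E2F site (TTTCGCGC, TTTGGCGC, TTTCCCGC or TTTGCCGC).
Top2a: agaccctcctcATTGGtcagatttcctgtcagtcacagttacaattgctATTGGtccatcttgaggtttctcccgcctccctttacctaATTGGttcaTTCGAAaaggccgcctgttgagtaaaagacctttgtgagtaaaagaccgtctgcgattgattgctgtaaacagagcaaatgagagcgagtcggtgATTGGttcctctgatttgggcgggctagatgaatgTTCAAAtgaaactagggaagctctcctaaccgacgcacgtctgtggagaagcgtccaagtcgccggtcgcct
Mki67: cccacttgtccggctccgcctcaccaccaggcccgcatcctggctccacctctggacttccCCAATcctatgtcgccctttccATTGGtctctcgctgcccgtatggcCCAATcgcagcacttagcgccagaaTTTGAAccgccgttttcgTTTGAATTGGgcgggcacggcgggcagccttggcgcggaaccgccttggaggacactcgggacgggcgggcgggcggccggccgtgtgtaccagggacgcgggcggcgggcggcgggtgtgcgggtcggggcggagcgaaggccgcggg
Cdk1: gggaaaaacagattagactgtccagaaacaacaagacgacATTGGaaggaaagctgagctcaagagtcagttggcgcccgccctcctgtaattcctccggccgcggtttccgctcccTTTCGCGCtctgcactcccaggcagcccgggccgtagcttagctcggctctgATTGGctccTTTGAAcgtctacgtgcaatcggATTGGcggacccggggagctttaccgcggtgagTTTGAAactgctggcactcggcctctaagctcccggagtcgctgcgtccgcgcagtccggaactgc
Mcm5: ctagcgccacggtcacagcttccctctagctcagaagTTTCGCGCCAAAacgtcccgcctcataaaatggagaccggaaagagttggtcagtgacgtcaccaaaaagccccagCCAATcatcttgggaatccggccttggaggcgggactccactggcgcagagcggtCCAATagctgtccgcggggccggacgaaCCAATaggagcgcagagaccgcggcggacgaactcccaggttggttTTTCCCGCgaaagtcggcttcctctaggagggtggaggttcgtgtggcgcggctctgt
Pcna: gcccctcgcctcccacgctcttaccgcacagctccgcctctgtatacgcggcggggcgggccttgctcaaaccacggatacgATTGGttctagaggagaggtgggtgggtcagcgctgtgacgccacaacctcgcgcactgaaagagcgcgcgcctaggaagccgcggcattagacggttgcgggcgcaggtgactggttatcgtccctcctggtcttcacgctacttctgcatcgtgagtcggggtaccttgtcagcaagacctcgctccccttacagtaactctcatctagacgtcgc

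The Top2a and Mki67 windows each held 4 CCAAT boxes and 2 CHR motifs, with 1 CHR of Mki67 overlapping a CCAAT box. Cdk1 had 3 CCAAT boxes, 2 CHR motifs and 1 E2F site. Mcm5 had 3 CCAAT boxes and 3 E2F sites, 2 of which overlap on opposite strands, and Pcna had 1 CCAAT box alone. RefSeq windows were matched for 71 of the 88 members. A CHR motif stood in 36.6% of these, against 19.5% of 27457 rat windows of the same length. E2F sites stood in 12.7% of the members against 2.25% of all windows, and CCAAT boxes in 53.5% against 37.7%. All 6 members of chromosome structure and the spindle had both a CCAAT box and a CHR. Among mitotic kinesins 6 of 11 had a CHR, and among centromere members 8 of 15. Replication members differed from these: 7 of 10 had an E2F site and 2 of 10 a CHR. Of 18 transport kinesins with a window, 1 had a CHR and 0 had an E2F site. A match is only a match of letters and says nothing of binding.

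Members that mark division were found together in a small number of cells. Top2a was counted in 849 of the 25547 cells, of which 430, or 50.6%, were alveolar macrophages, 117 (13.8%) were natural killer (NK) cells and 100 (11.8%) were interstitial macrophages. These cells were deeper than the rest, with a median of 3653 UMIs against 1370 in the 24698 other cells. For each member the level in Top2a cells, in CPM, was divided by that in the other cells, so that depth is taken out. The median ratio was 40.3 for mitotic kinesins (13.1 to 68.7), 35.2 for cyclins, kinases and checkpoint members, 19.9 for centromere members and 19.6 for the other 5 members of chromosome structure and the spindle. Replication members spread over a wide range around a median of 5.95, from 0.87 for Mcm9 to 68.9 for Rrm2. Mcm5 stood at 12.6 and Tyms, thymidylate synthase, at 15.3. Pcna stood lower than these at 2.17. The mix of classes is not taken out of the ratios, and B cells, with the highest Pcna level, were only 2.71% of Top2a cells. Transport kinesins were at 0.97 (0.26 to 1.55) and the members placed in no role at 1.01.

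NK cells held the highest pooled level of 10 of 16 centromere members, 9 of 12 mitotic kinesins, 7 of 12 replication members, 5 of 6 members of chromosome structure and the spindle, and 5 of 9 cyclins, kinases and checkpoint members. Pooled over rats, Top2a reached 273.5 CPM in NK cells and 144.4 in the next class, basophils or mast cells. The latter value rests on 14 UMIs in 3 of 72 cells, a class too small to test. Mki67 reached 439.8 CPM in NK cells. Some members peaked elsewhere. Pcna was highest in B cells, at 1506 CPM, and Mcm3 also, at 194.7. Smc4 was highest in T cells at 1078 CPM, Kif2a, which takes microtubules apart, in conventional dendritic cells at 168.5, and Kif17 in plasmacytoid dendritic cells at 84.7. Club cells, the secretory cells of the small airways, led for Cenpf at 130.1 CPM and Kif4a at 159.9. These are 3'-end UMI counts, for which transcript length does not enter, and the pooled values are given as a description.

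**Figure D1:**
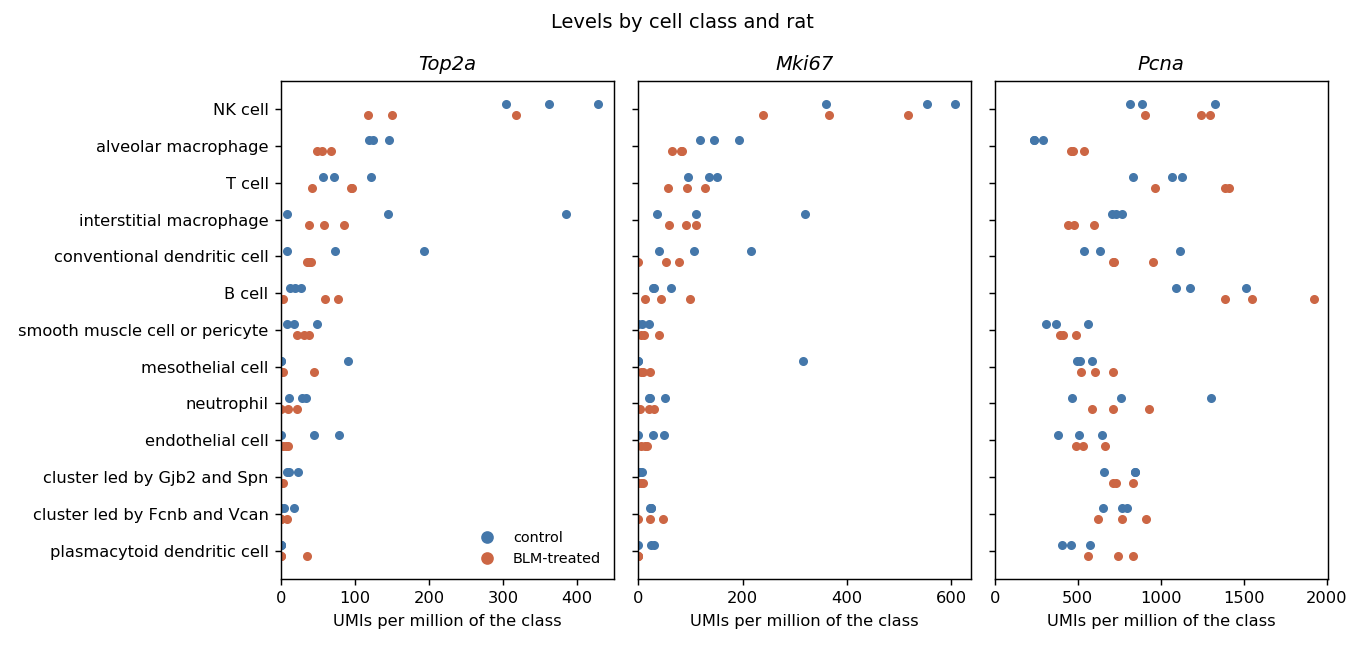
Levels of Top2a, Mki67 and Pcna, in CPM of the class, in the 13 tested classes, with each rat as a point and control and BLM-treated rats in separate colours. By pooled level Top2a and Mki67 are highest in NK cells, with 1 control rat of the interstitial macrophages (Top2a 385) as high, while Pcna is high in B cells, where Top2a is low.

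The pattern of Top2a over 99 sums of 1 class in 1 rat was most like that of Pclaf, with a Spearman rho of 0.84, among 12372 genes compared. Spc24 and Mki67 followed at 0.78, Esco2 at 0.76, Ube2c, Tpx2, Sgo2 and Racgap1 at 0.73, and Nusap1 and Fam111a at 0.72. Pclaf is a partner of Pcna in replication, and Spc24 is a kinetochore subunit. Sums of 1 rat share a library and sums differ in depth, so the coefficients are descriptive.

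In the whole lung, with all cells of a rat summed, members that fell outnumbered those that rose, and mitotic kinesins gave the most falls, while no replication member passed. Of 85 members with enough UMIs to be tested, 20 fell and 2 rose, and 63 did not pass the quasi-likelihood test of edgeR at a Benjamini-Hochberg adjusted p of 0.05, adjusted across every gene in the fit. Across the 13346 genes tested 17.4% passed, 6.33% as lower and 11.1% as higher, against 25.9% of the members. The median log2 fold change of the members was -0.43, and that of all genes -0.01. In such a sum, fewer dividing cells and less mRNA per cell cannot be told apart. The fold of a gene also moves with the share of the cells that express it.

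Top2a stood at 86.8, 97.1 and 100.1 CPM in control rats 1 to 3 and at 50.1, 47.7 and 28.9 in BLM-treated rats 1 to 3, with no overlap. It fell by 1.20 on the log2 scale (SE 0.227, adjusted p = 0.0117). Cenpf, a large kinetochore protein, had 48.3, 81.6 and 87.7 CPM in control and 33.5, 35.9 and 26.6 in BLM-treated lungs, and it fell by 1.22 (adjusted p = 0.0155). Among members of chromosome structure and the spindle, Mki67 (-0.93, adjusted p = 0.025) and Nusap1, which bundles spindle microtubules (-1.02, adjusted p = 0.0425), fell with Top2a. Smc2 (-0.40, adjusted p = 0.0723) and Smc4 (-0.30, adjusted p = 0.235) did not pass. Among 9 cyclins, kinases and checkpoint members, 4 fell. Cdk1 went from 33.9, 33.9 and 42.8 CPM to 18.9, 22.6 and 14.4 (-1.03, adjusted p = 0.0191). The checkpoint kinase Bub1b (-0.94), the spindle pole kinase Aurka (-0.76) and Ube2c (-0.96), which tags cyclins for destruction, fell as well. Ccnb1, cyclin B1, had a log2 fold change of -0.70 and an adjusted p of 0.202.

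Mitotic kinesins were the role with the most calls, 7 of 12, and a median log2 fold change of -0.93. Summed over the role they stood at 160, 226 and 217 CPM in control rats and at 121, 126 and 92.1 in BLM-treated rats. Kif20a, needed for cytokinesis, had 7.26, 14.8 and 13.5 CPM in control and 5.20, 5.42 and 3.20 in BLM-treated lungs (-1.38, adjusted p = 0.0309). The spindle motors Kif11 (-0.98), Kif15 (-0.86) and Kifc1 (-1.13), with Kif20b (-1.18), Kif2c (-1.16) and Kif18a (-0.89), fell too. Of 15 centromere members tested, Cenpf and Cenpt (-1.10) fell, and the median was -0.61.

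None of the 12 replication members passed in the whole lung by edgeR, and their median was -0.24. Pcna had 478, 538 and 360 CPM in control and 610, 557 and 610 in BLM-treated lungs, groups that did not overlap, with a log2 fold change of 0.34 (SE 0.151, adjusted p = 0.171). Rrm2, of which 72 UMIs were counted in all, was at -1.15 with an adjusted p of 0.0956. For the helicase the values were -0.07 for Mcm2, -0.18 for Mcm3, -0.06 for Mcm4, -0.46 for Mcm5, -0.25 for Mcm6 and -0.40 for Mcm7, with adjusted p between 0.167 and 0.833. Tyms was at -0.05 (adjusted p = 0.909). The summed role stood at 708, 815 and 560 CPM in control and at 822, 775 and 789 in BLM-treated lungs, groups that overlap.

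The count of calls moved with the cells and rats in the sum. Leaving some out changes the test of every gene, and no share of all genes called was set beside these counts. They are therefore not read as a result about the members alone. Without the alveolar macrophages 6 members passed rather than 22, and Top2a was at -0.54 with an adjusted p of 0.335. Without the NK cells 25 passed, and Top2a was at -1.31. Leaving out 1 rat left between 3 calls, without control rat 3, and 13, without control rat 1. Without control rat 2 there were 10, and without BLM-treated rats 1 to 3 there were 10, 11 and 8. Top2a and Kifc1 passed in all 6 of these fits.

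Some of the calls were of members whose highest class was epithelial. Aurkb, the kinase that corrects chromosome attachment, was 26.0, 40.2 and 32.2 CPM in control and 79.3, 123 and 61.1 in BLM-treated lungs, and it rose by 1.40 (adjusted p = 0.0147). Its UMIs were not mainly in dividing cells: ciliated cells held 4861 CPM, with a UMI in 173 of 193 cells (89.6%), all other cells together 25.5 CPM and NK cells 97.4. Ciliated cells numbered 7, 7 and 1 in control rats and 24, 129 and 25 in BLM-treated rats, too few to test within the class, and their cluster had 6 of 6 ciliated markers higher. Without ciliated cells Aurkb was at -0.38 in the whole lung (adjusted p = 0.341). Without control rat 3 its call was lost, at an adjusted p of 0.0514. Kif27, a kinesin of motile cilia, rose by 1.51 (adjusted p = 0.0493) at low levels of 1.32, 1.30 and 0.739 CPM in control and 1.73, 3.67 and 3.99 in BLM-treated lungs. It had 169.6 CPM in ciliated cells and 0.81 in all others, and too few UMIs to test without ciliated cells.

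Other members shared this place of expression. Pooled over rats, Kif3a, the motor that builds cilia, had 345 CPM in ciliated and 62.2 in all other cells. Kif9 had 69.4 against 2.18, Kif19 69.4 against 0.41, Kif6 48.2 against 0.39, and Ccna1 115.7 against 0.35. Top2a in contrast had 15.4 CPM in ciliated and 65.3 in other cells. Ciliated cells were the highest class for 9 of 27 members of the transport and ciliary group.

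**Figure D2:**
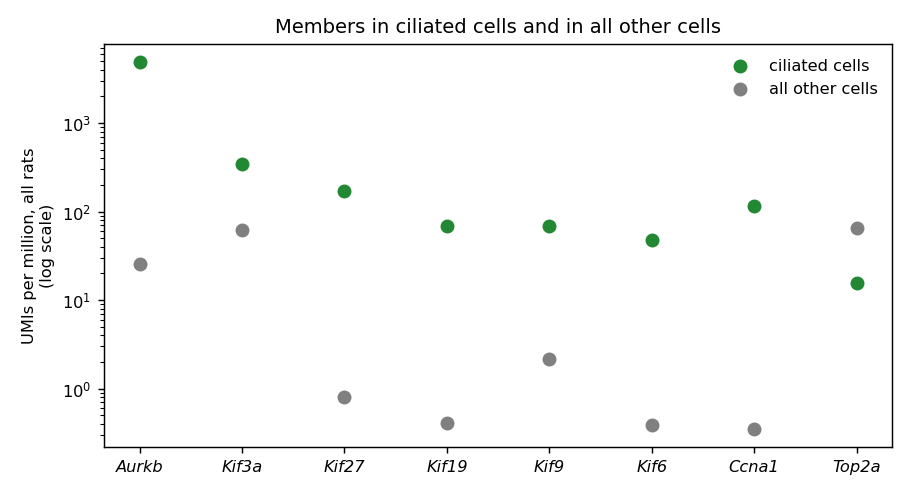
Pooled levels of 8 members in ciliated cells and in all other cells, in CPM on a log axis. Aurkb stands at 4861 in ciliated cells and 25.5 elsewhere, while Top2a is lower in ciliated cells (15.4) than elsewhere (65.3).

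Kif3c, Kifc2 and Kif16b, motors of transport, fell in the whole lung and were highest in type 2 alveolar (AT2) cells, at 36.2, 59.8 and 136.9 CPM. Kif3c went from 5.94, 10.4 and 4.11 to 1.61, 1.51 and 2.62 CPM (-1.83, adjusted p = 0.018), Kifc2 by -1.41 (adjusted p = 0.0482) and Kif16b by -0.52 (adjusted p = 0.0233). AT2 cells numbered 235, 214 and 281 in control rats and 6, 56 and 48 in BLM-treated rats. Without them Kif3c was at -0.08, Kifc2 at -0.07 and Kif16b at -0.21, all with adjusted p of at least 0.329. Kif18a, whose highest class was also AT2 (38.4 CPM), was at -0.70 without them (adjusted p = 0.111), whereas Top2a was at -1.33 (adjusted p = 0.0078). Kif3a fell in the whole lung, by 0.78 (adjusted p = 0.026), from 73.2, 71.0 and 101 CPM to 49.99, 45.3 and 54.5.

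In alveolar macrophages, the class with the most cells holding Top2a, 19 of the 50 tested members of replication and mitosis fell and 1, Pcna, rose. Of 67 members tested, 20 fell, 1 rose and 46 did not pass. Of 9459 genes tested in the class 12.8% passed, 5.21% as lower and 7.59% as higher, against 31.3% of the members. The median log2 fold change was -0.46 over the members and 0.00 over all genes, and 59 of the 67 lay below 0. Cells of the class were deeper in BLM-treated lungs, with medians of 4960, 3896.5 and 4069.5 UMIs against 2989.5, 1480.5 and 4006 in control lungs. Its cells numbered 1342, 850 and 1900 in control and 598, 1140 and 648 in BLM-treated rats.

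Top2a had 118, 146 and 124 CPM in control alveolar macrophages and 48.7, 67.3 and 54.6 in those of BLM-treated lungs, with no overlap, and fell by 1.16 (SE 0.145, adjusted p = 7.5e-04). Mki67 had 118, 194 and 146 CPM against 65.4, 81.8 and 84.1 (-0.96, adjusted p = 0.00537). Nusap1 fell by 0.96 (adjusted p = 0.00454). The condensin subunit Smc4 showed the smallest fall among these, 0.44 (adjusted p = 0.047), from 268, 336 and 272 CPM to 186, 219 and 235. Smc2 (-0.51, adjusted p = 0.0505) and the spindle protein Ckap2 (-0.62, adjusted p = 0.0948) did not pass.

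Of the 9 cyclins, kinases and checkpoint members 4 fell, with a median of -0.87 over the role. Cdk1 had 47.2, 65.8 and 57.7 CPM in control and 24.7, 31.8 and 28.4 in BLM-treated alveolar macrophages (-0.98, adjusted p = 0.00367). Ube2c (-1.05, adjusted p = 0.0219), the checkpoint kinase Bub1 (-0.87, adjusted p = 0.0324) and Ccnb1 (-1.28, adjusted p = 0.0391) fell with it. Ccna2 (-0.97, adjusted p = 0.063), Aurka (-0.46) and Aurkb (-0.41) did not pass, so that the rise of Aurkb in the whole lung was not seen in this class.

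Centromere members gave 4 falls among 14. Cenpf went from 70.4, 152 and 116 CPM to 27.2, 47.4 and 50.3 (-1.40, adjusted p = 0.00867). Cenpw, of the inner kinetochore, went from 17.7, 19.9 and 25.3 to 8.35, 8.64 and 7.68 (-1.36, adjusted p = 0.00402). Cenpa, the histone that marks the centromere, fell by 1.11 (adjusted p = 0.0399), and Cenpt by 1.18 (adjusted p = 0.0373). Mitotic kinesins gave 7 falls among 11, and their sum stood at 185, 333 and 255 CPM in control and 106, 149 and 136 in BLM-treated rats. Kif20a fell by 1.56 (adjusted p = 0.0158), from 10.4, 27.8 and 17.9 CPM to 5.08, 6.78 and 5.76. The others were Kif2c (-1.29), Kifc1 (-1.10), Kif20b (-1.09), Kif15 (-1.06), Kif23 (-0.83), which forms the midzone of the spindle, and Kif22 (-0.81).

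Transport kinesins in the same cells gave 1 fall among 13, Kif3a (-0.71, adjusted p = 0.0324), and a median of 0.04. Their sum stood at 812, 949 and 864 CPM in control and 823, 800 and 920 in BLM-treated rats. Kif1b was at 0.09 and Kif5b at -0.05. The members placed in no role gave no call among 4 by edgeR.

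**Figure D3:**
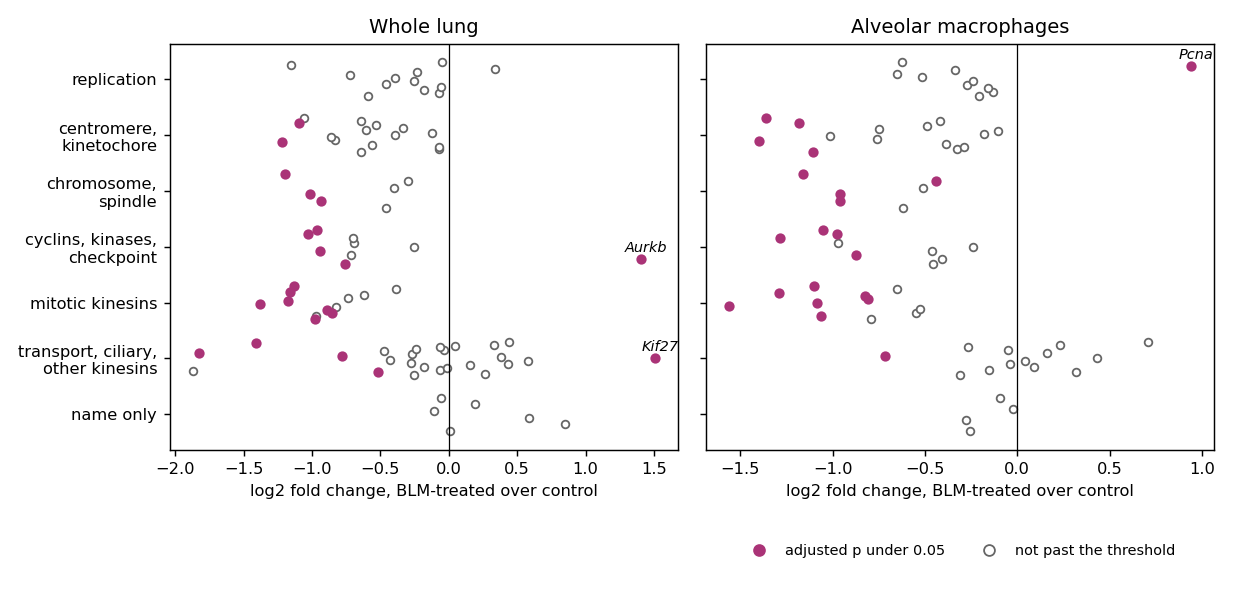
Log2 fold change of each member, BLM-treated against control, by role, in the whole lung and in alveolar macrophages, with filled points for an adjusted p under 0.05 by edgeR's quasi-likelihood test. Mitotic kinesins lie mostly below 0 in both panels, transport kinesins lie around 0, and Aurkb and Kif27 in the whole lung and Pcna in alveolar macrophages are the filled points above 0.

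Pcna moved the other way from the mitotic members. It had 293, 234 and 239 CPM in control alveolar macrophages and 470, 535 and 459 in BLM-treated ones, and rose by 0.94 (SE 0.141, adjusted p = 0.00216). Besides replication it serves in DNA repair, where the same clamp is used. The other replication members tested did not pass: Mcm2 was at -0.13, Mcm3 at -0.16, Mcm4 at -0.27, Mcm5 at -0.24, Mcm6 at -0.52, Mcm7 at -0.65 and Tyms at -0.62, with adjusted p between 0.0933 and 0.749. Mcm4, for example, had 45.6, 41.7 and 38.8 CPM in control and 33.4, 37.4 and 32.7 in BLM-treated rats, groups that do not overlap. Rrm2 had too few UMIs in the class to be tested.

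The higher level of Pcna was measured in cells without a mitotic UMI. Alveolar macrophages were split by whether they held a UMI of any of 12 mitotic members, and 13.9%, 17.8% and 17.9% of control and 17.4%, 15.9% and 15.4% of BLM-treated cells did, at the unequal depths given above. In cells without such a UMI, Pcna stood at 194, 157 and 165 CPM in control and at 410, 476 and 418 in BLM-treated rats. With such a UMI it stood at 787, 501 and 521 against 726, 791 and 650, and these groups overlap. Mcm2 in the cells without was at 14.2, 8.55 and 10.97 against 11.2, 11.2 and 11.7. No test was run on these values, since the split uses members.

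Cdk1, Cenpf, Cenpw, Mki67, Nusap1, Pcna and Top2a passed in alveolar macrophages in each of the 6 fits with 1 rat left out, 7 of the 21. The count of calls was 12 without control rat 3 and 8, 13 and 10 without BLM-treated rats 1 to 3. Without control rat 1, only Cenpt and Smc4 of the 21 lost their call. Without the remaining control rat, Ccnb1 and Kif23 lost theirs as well. No share of all genes called was set beside these counts, so they are not read as a result about the members alone.

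**Figure D4:**
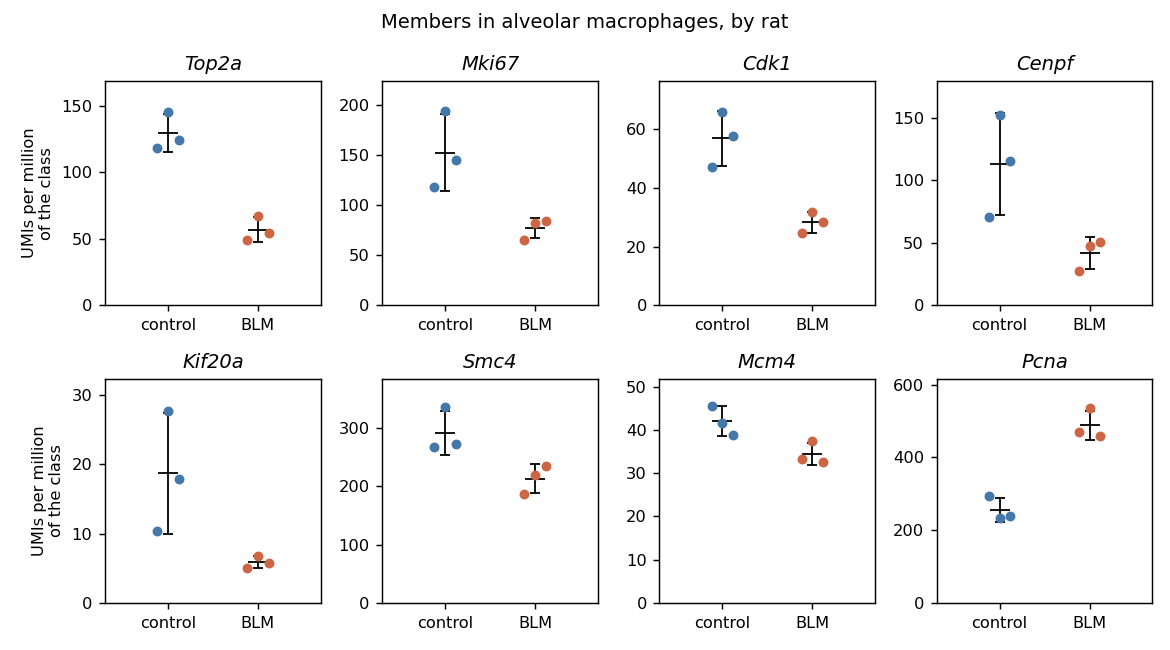
Levels of 8 members in alveolar macrophages, in CPM of the class, with each rat as a point and bars for the mean and SD of 3 rats per group. Top2a, Mki67, Cdk1, Cenpf, Kif20a, Smc4 and Mcm4 lie lower in BLM-treated rats and Pcna lies higher, without overlap between the groups. The panels are chosen members, and all but Mcm4 had passed the test in this class. Their lack of overlap is thus no result about the members as a whole.

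The alveolar macrophages fell into 4 clusters, whose shares differed between groups, so that the fall over the class and the change of its makeup went together. The cluster led by Slc39a2 and Cxcr1 held 353, 38 and 668 control and 291, 604 and 357 BLM-treated cells. That led by Serpinb10 and Sirpb3 held 651, 316 and 945 control and 35, 93 and 119 BLM-treated cells. The cluster led by Retnlg and Tchh held 315, 494 and 250 against 79, 104 and 46 cells. The cluster led by Olr1 and Fabp4 held 23, 2 and 37 against 193, 339 and 126 cells, and had too few control cells to test. Control cells thus lay mostly in the clusters led by Serpinb10 and by Retnlg, and BLM-treated cells in the others.

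Top2a differed between the clusters themselves. It stood at 60.9, 173 and 41.9 CPM in control and 48.8, 102 and 30.4 in BLM-treated rats in the Slc39a2 cluster, groups that overlap widely. In the Serpinb10 cluster it stood at 159, 112 and 209 against 25.2, 71.2 and 163, and in the Retnlg cluster at 185, 198 and 258 against 70.1, 165 and 97.5. The Olr1 cluster had no Top2a UMI in the 23, 2 and 37 control cells, too few to give a level, and 49.96, 14.8 and 42.2 CPM in BLM-treated rats. Tested within a cluster, Top2a had a log2 fold change of -0.01 (adjusted p = 0.999) in the Slc39a2 cluster, -0.67 (adjusted p = 0.34) in the Serpinb10 cluster and -0.76 (adjusted p = 0.237) in the Retnlg cluster.

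Within clusters few members passed. In the Slc39a2 cluster 774 of 8247 genes and 3 of 56 members passed: Pcna rose by 0.64 (adjusted p = 0.0459), Aurkb rose by 1.14 (adjusted p = 0.0197) and Kif3a fell by 0.84 (adjusted p = 0.0205). Of the 20 members that fell over the class 17 could be tested there, of which 2 lay below 0, and their median was 0.39. In the Serpinb10 cluster 182 of 6671 genes passed and 2 of 53 members, Cenpw (-2.28, adjusted p = 0.0388) and Smc2 (-0.88, adjusted p = 0.0453). There all 19 of the fallen members tested lay below 0, with a median of -0.77. The fallen members were chosen by sums over the class that include these cells, so that their signs here are no separate evidence. Over all members tested the median was -0.55 in the Serpinb10 cluster, 0.30 in the Slc39a2 cluster and -0.08 in the Retnlg cluster. In the Retnlg cluster 198 of 3439 genes passed and 0 of 23 members by edgeR, with 4 of 9 fallen members below 0. Mki67 in that cluster was 231, 242 and 316 CPM in control and 350, 495 and 171 in BLM-treated rats. The fall of the mitotic members over the class was therefore not seen in each of its clusters, and the cluster counts of 35 to 119 cells per BLM-treated rat limit the Serpinb10 and Retnlg values.

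Pcna lay higher in BLM-treated rats by its means in the Slc39a2, Serpinb10 and Retnlg clusters. It was 281, 399 and 200 against 373, 513 and 409 CPM in the Slc39a2 cluster, 311, 238 and 270 against 378, 415 and 328 in the Serpinb10 cluster, and 193, 189 and 212 against 228, 292 and 439 in the Retnlg cluster. In the Olr1 cluster it was 633, 588 and 671 CPM in BLM-treated rats, and the control cells were too few to give a level. Pcna passed the test in the Slc39a2 cluster. The log2 fold change was 0.38 in the Serpinb10 cluster (adjusted p = 0.303) and 0.73 in the Retnlg cluster (adjusted p = 0.113).

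The rest of the cell cycle machinery was read from 5 lists. In alveolar macrophages the list of mitotic entry and exit had 17 falls and 1 rise among 31 genes, and a median of -0.94, where 5.21% of all genes in the fit were lower and 7.59% higher. Plk1, the polo kinase of mitosis, had 10.4, 16.9 and 15.1 CPM in control and 3.63, 7.24 and 4.61 in BLM-treated rats (-1.37). The kinetochore subunit Ndc80 (-1.47), Aspm (-1.46), Cdc20 (-1.36) and Birc5 (-1.24) fell, and Cdca2 rose by 1.47. In the whole lung the same list had 7 falls, with Aspm at -1.35 and Ndc80 at -1.10, and 1 rise among 32, Wee1, where 6.33% of all genes were lower and 11.1% higher. Wee1, which holds Cdk1 inactive, rose by 1.65, from 18.6, 26.9 and 17.3 to 59.6, 65.1 and 74.7 CPM.

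Inhibitors of cyclin-dependent kinases and genes of the damage response did not all move alike in alveolar and interstitial macrophages, each read from its own fit. In the whole lung Phlda3 rose by 2.12, from 10.8, 20.7 and 12.3 to 63.5, 62.6 and 64.6 CPM. Cdkn1a, the inhibitor p21, rose by 1.19, from 153, 186 and 125 to 339, 362 and 381, and Ccng1 (0.97) and Mdm2 (0.43) rose with it. In alveolar macrophages 3 of 10 rose, Cdkn1a (1.96), Ccng1 (0.998) and Mdm2 (0.97), while the inhibitors Cdkn2b (-2.41) and Cdkn3 (-1.16) fell. Of all genes in that fit 7.59% were higher and 5.21% lower. Cdkn1a stood there at 22.2, 18.7 and 20.9 CPM in control and 78.4, 120 and 40.3 in BLM-treated rats. In interstitial macrophages Cdkn1a fell by 0.63 and the inhibitor Cdkn1b by 1.13, while Ccng1 rose by 1.33. Of all genes in this class 8.31% were lower and 8.75% higher, and its makeup by cluster also differed between groups. Other classes are not described for this list.

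Genes of origins and forks gave 3 falls among 30 in the whole lung, Gins1 (-1.05), Tk1 (-0.87) and Dnmt1 (-0.56), and 4 among 28 in alveolar macrophages, Tk1 (-1.30), Gins1 (-0.78), Dut (-0.69) and Rrm1 (-0.42). Genes of entry into S phase gave 3 falls among 14 in the whole lung, E2f2 (-0.95), Ccnd1 (-0.75) and Ccnd3 (-0.57), and 1 rise among 13 in alveolar macrophages, Ccne1 (1.10, adjusted p = 0.047). The list of condensin, cohesin, histones and tubulin gave 3 falls among 20 in the whole lung, Ncapg (-1.07), Ncapd3 (-0.68) and Tuba1b (-0.48). In alveolar macrophages it gave 3 falls, Ncapg (-1.28), Stmn1 (-0.71) and Tuba1b (-0.57), and 1 rise, H2afx (0.72). The medians of these 3 lists lay between -0.13 and -0.26 in both fits. Of all genes 6.33% were called lower in the whole lung and 5.21% in alveolar macrophages. Each list with falls had a larger share lower, but by at most 4 genes. Nothing is read from such small counts about the lists. Pclaf, the gene most like Top2a across classes, fell by 0.85 in alveolar macrophages (adjusted p = 0.00382).

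The share of cells with a Top2a UMI was compared after each cell had been thinned to 500 UMIs, which left out 1327 control and 1637 BLM-treated cells below that depth. In the whole lung it was 2.26%, 2.53% and 2.41% in control and 1.48%, 1.19% and 0.689% in BLM-treated rats, or 2.40% ± 0.135 against 1.119% ± 0.399 (SD, n = 3), by an exact permutation test p = 0.1, two-sided. With 3 rats against 3 this is the smallest p that the test can give. Unthinned, the shares were 3.94%, 4.01% and 4.85% against 2.73%, 2.94% and 1.81%. In alveolar macrophages thinned shares were 3.35%, 3.74% and 3.72% against 2.28%, 2.43% and 1.41%, and in NK cells 7.38%, 11.8% and 7.74% against 6.25%, 4.94% and 4.96%, groups that do not overlap in either class. Neutrophils, which do not divide, gave 0.935%, 0.806% and 0.355% against 0.735%, 0% and 0% as a background, from cells of a median of 621 UMIs against 3560.5 in alveolar macrophages and 1012.5 in NK cells. The alveolar macrophage and NK shares lay above that background in all 6 rats.

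For Mki67 the thinned share in alveolar macrophages was 3.96%, 5.48% and 3.88% in control and 2.46%, 4.01% and 1.73% in BLM-treated rats, groups that overlap. For Pcna it was 10.1%, 8.72% and 9.91% against 19.3%, 20.6% and 16.0%, with no overlap. Unthinned, 42.8%, 26.2% and 44.5% of control and 69.6%, 68.4% and 68.8% of BLM-treated alveolar macrophages held a Pcna UMI. Neutrophils held a Pcna UMI in 18.8% to 43.4% of thinned cells, a larger background than that of Top2a in the same cells. The alveolar macrophage shares of control rats lay below this range, and those of BLM-treated rats below it or at its lower end. Unlike the Top2a shares, the Pcna shares thus did not stand above the background.

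In interstitial macrophages 3 of 36 members fell, Cenpj, Cenpc and Mcm7, against 17.1% of 6138 genes called in the class, 8.31% as lower and 8.75% as higher. The share of members called is below that of all genes. With 1 rat left out, Cenpc passed in 1 of 6 fits, Mcm7 in 0 of 3 in which it was tested and Cenpj in 2 of 3. The sums of the class held only 139565, 75308 and 117766 UMIs in control rats 1 to 3, so that low CPM there rest on few UMIs. Cenpc, the base plate of the kinetochore, went from 57.3, 106 and 84.9 to 24.5, 31.7 and 38.7 CPM (-1.20, adjusted p = 0.0324), and Mcm7 from 35.8, 93.0 and 50.9 to 18.2, 16.6 and 22.3 (-1.44, adjusted p = 0.0355). Cenpj, a centriole protein in spite of its name, fell by 1.93 (adjusted p = 0.0108), from 35.8, 53.1 and 76.4 to 11.8, 11.4 and 17.6 CPM. Top2a ranged from 7.17 to 385 CPM among the control rats, with 65, 53 and 71 cells, and from 37.6 to 85.4 among the BLM-treated rats, with 261, 939 and 291 cells (-1.18, adjusted p = 0.197). Mki67 was at -0.43 (adjusted p = 0.598). Pcna was 731, 704 and 764 CPM in control and 442, 476 and 595 in BLM-treated rats (-0.42, adjusted p = 0.143).

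Makeup differed here as well. The cluster led by Spp1 and Apoe held 1, 3 and 8 control and 186, 677 and 129 BLM-treated cells, and that led by C1qc and C1qb held 64, 50 and 63 against 75, 262 and 162. The study counts its macrophages with high Spp1 and Trem2 as alveolar, whereas the Spp1 cluster was named interstitial here from the fixed markers. Whether these are the same cells was not tested. Within the C1qc cluster, where 37 of 2646 genes passed, 0 of 9 members did by edgeR, and Pcna was 763, 741 and 803 against 881, 828 and 881 CPM (0.18, adjusted p = 0.774).

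The difference in the effect of BLM between classes was tested itself, with the rat as a block. Between alveolar and interstitial macrophages 3 of 66 members differed, against 16.8% of 9615 genes. Pcna differed by 1.21 on the log2 scale (SE 0.195, adjusted p = 6.5e-06), rising in alveolar macrophages and lying lower, without passing, in interstitial ones, and it did so in all 6 fits with 1 rat left out, at 1.10 to 1.31. Cenpj and Cenpa were the others. When the Slc39a2 cluster was set against the C1qc cluster, 140 of 6324 genes and 0 of 41 members differed by edgeR. Pcna stood there at 0.37 (adjusted p = 0.585). Between alveolar macrophages and T cells 2 of 64 members differed, Top2a by -1.27 (SE 0.324, adjusted p = 0.0359) and Kif3a by -1.80 (SE 0.477, adjusted p = 0.0466), against 1.61% of 9249 genes. The Top2a difference passed in 2 of 6 fits with 1 rat left out.

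Lymphocytes gave no call among the members by edgeR. In NK cells 0 of 35 members passed, 1 had an unadjusted p under 0.05 and DESeq2 called 0, where 0.0461% of 4334 genes passed, so that hardly any gene was called in the class. The median of the members was -0.34 with 29 of 35 below 0. Top2a in NK cells was 362, 429 and 304 CPM in control and 318, 150 and 117 in BLM-treated rats (-0.81, SE 0.299, adjusted p = 0.502), and Mki67 was 552, 607 and 360 against 517, 366 and 240. The summed mitotic kinesins were 616, 664 and 623 against 585, 331 and 277 CPM, lower in BLM-treated rats without overlap. Pcna in NK cells was 887, 1328 and 817 against 1243, 908 and 1298 CPM, with overlap.

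In T cells 0 of 28 members passed, 5 had an unadjusted p under 0.05, and DESeq2 called 1, with 0.57% of 5265 genes called. Smc4, at its highest here, was 1440, 1461 and 1411 CPM in control and 1041, 862 and 811 in BLM-treated rats, with no overlap, but did not pass (-0.63, SE 0.153, adjusted p = 0.0743). Top2a in T cells was 56.8, 70.7 and 121 against 93.7, 95.6 and 41.7 CPM (0.01, adjusted p = 0.997). In B cells 0 of 17 passed, 0 had an unadjusted p under 0.05 and DESeq2 called 0, with 0.235% of 4254 genes called. Pcna in B cells was 1175, 1517 and 1092 against 1923, 1549 and 1387 CPM, and Top2a 27.1, 17.9 and 12.4 against 2.61, 76.4 and 59.0.

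Among structural cells 1 member passed. Smc4 rose by 0.88 in smooth muscle cells or pericytes (SE 0.232, adjusted p = 0.0133), from 176, 138 and 153 to 267, 274 and 285 CPM, as 1 of 20 members tested where 11.5% of 5802 genes passed. The call was lost without control rat 2 or 3, and DESeq2 did not make it. In endothelial cells 0 of 21 passed by edgeR, 5 had an unadjusted p under 0.05 and DESeq2 called 0, with 6.83% of 6205 genes called. There Mcm4 was 114, 103 and 94.5 CPM in control and 46.6, 52.0 and 47.1 in BLM-treated rats, without overlap (-0.93, SE 0.305, adjusted p = 0.0876). The control values rest on few UMIs, from 27, 41 and 151 endothelial cells with 26373, 68128 and 243390 UMIs in all. Mcm4 is a chosen member, so that its lack of overlap is no result about the members. In mesothelial cells, the lining of the lung, 0 of 11 passed by edgeR, 1 had an unadjusted p under 0.05 and DESeq2 called 0, with 1.79% of 3686 genes called.

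The other tested classes held few measured members. In neutrophils, 0 of 6 passed where 19.3% of 3282 genes did, 1 had an unadjusted p under 0.05, and DESeq2 called 0. Plasmacytoid dendritic cells gave 0 of 3, with 1 at an unadjusted p under 0.05 and 0 by DESeq2, where 0.522% of 1725 genes passed. Conventional dendritic cells gave 0 of 5 with 0.0459% of 2180 genes called, the cluster led by Gjb2 and Spn 0 of 11 with 1.11% of 4155, and the cluster led by Fcnb and Vcan 0 of 4 with 0.449% of 3343. In these last 3 classes edgeR gave 0 members with an unadjusted p under 0.05, and DESeq2 called 0.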

How the data were processed

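Lung pieces of 3 control and 3 BLM-treated rats were sampled. The deposited values are UMI counts, whole and not normalized, which the authors made per gene for each cell they kept from BD Rhapsody whole transcriptome libraries. Which aligner and counting program they used is not given in the sources used here. The submitters' processing notes give mm9 as the build, although the symbols are those of the rat. The table names 1 field fewer than it holds, and gene values were read 1 field to the right of their names. Cell names end in N or F with a number. N was read as control and F as BLM-treated because the cells of each letter total the cells that the study states for each group.

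The rule for the members reads names alone, but rule, lists and tests were chosen with earlier results of these data known. Cells were scaled to 10000 UMIs and clustered (Leiden, resolution 1.0, scanpy 1.11.5, leidenalg 0.10.2, Python 3.11.15) on 2000 variable genes, 30 principal components and 15 neighbours. Scrublet called 99 cells (0.388%) as doublets, too few to have worked, and all cells were kept. Clusters were named from fixed markers, at least 3 of them. UMIs were summed per rat and class and tested by the quasi-likelihood test of edgeR 4.0.16 (R 4.3.3) after filterByExpr and TMM, two-sided, with p-values adjusted by Benjamini-Hochberg over each whole table and a threshold of 0.05. A member in few cells of 1 group could fail this filter, so that counts are over the members tested. The p-values measure the spread between 3 rats per group. Shares were compared by exact permutation over rats. Depth per rat was 3860028 to 16598959 UMIs.

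Named are 13 fixed members, all members past the threshold, up to 3 members highest in a class, up to 6 genes of a list, and the 10 genes most like Top2a. Alternatives were RLE scaling, DESeq2 1.42.0, no filter, a replicate block, fits without each rat, without called doublets and without cells under 500 UMIs, clustering at resolutions 0.5 and 2.0 and with the cell cycle genes, and thinning to 300 or 1000 UMIs. Sums without 1 class and single clusters were chosen after seeing the data. The tests were tested on simulated data. Promoter windows were RefSeq's (GRCr8). One gene of the lists is not reported here.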

Additional observations from a re-analysis of the deposited data

Results flagged for a closer look

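A test of the difference between classes singled out 5 members. Each value is the log2 fold change, BLM-treated against control, in alveolar macrophages minus that in the other class, from edgeR's quasi-likelihood test with the rat as a block.

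Against interstitial macrophages, Pcna differed by 1.21 (adjusted p = 6.5e-06), and this passed with each rat left out in turn. Cenpj differed by 1.498 (adjusted p = 0.0383) and passed in 2 of 6 such fits. Cenpa differed by -8.99 (adjusted p = 0.00591), a fitted value that depends on the prior count. Interstitial macrophages of control rats held 0 Cenpa UMIs of 332639, and those of BLM-treated rats held 67 of 5201080, or 12.9 CPM. Against a floor of 3 counts over the control group (9.02 CPM) this was at least 1.43-fold higher. The difference was lost without control rat 3 (adjusted p = 0.0645).

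Against T cells, Top2a differed by -1.27 (adjusted p = 0.0359) and passed in 2 of 6 fits with 1 rat left out. Kif3a differed by -1.80 (adjusted p = 0.0466). In T cells of BLM-treated rats Kif3a stood at 28.6, 36.4 and 149 CPM, and the difference passed in 2 of 6 fits with 1 rat left out, being lost without BLM-treated rat 3 and without each control rat. Over the 6 fits it ranged from -2.27 to -0.93, with adjusted p up to 0.42.

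With 66 members tested against interstitial macrophages and 64 against T cells, the 16.8% and 1.61% of all genes called in the same fits are the background of these counts. The makeup of the macrophage classes by cluster differed between groups. In the fit of 1 pair of clusters, 0 of 41 members and 140 of 6324 genes differed by edgeR. With so few of all genes called, that fit cannot show the part of makeup in the differences.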

How the results depend on the processing

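The count of members called in the whole lung was 22. It was 6 without alveolar macrophages, 11 with the replicate block and 3 to 13 with 1 rat left out. In alveolar macrophages it was 21. It was 12 with the cell cycle genes kept in the clustering, 3 in the Slc39a2 cluster, 2 in the Serpinb10 cluster, 0 in the Retnlg cluster by edgeR, and 8 to 20 with 1 rat left out. In interstitial macrophages it was 3, against 0 in the C1qc cluster and 0 to 4 with 1 rat left out. In T cells it was 0, and 1 with no filter, with DESeq2 or with the cell cycle genes in the clustering. In endothelial cells it was 0, and 4 with no filter and 0 to 1 with 1 rat left out. In smooth muscle cells or pericytes it was 1, and 2 with no filter, 0 with DESeq2 and 0 to 1 with 1 rat left out. Mesothelial cells gave 1 with no filter and neutrophils 1 with doublets removed, against 0. The differences from interstitial macrophages were 3, with 6 at resolution 0.5 or with no filter and 0 in single clusters. Those from T cells were 2, with 1 when doublets were removed or cell cycle genes were kept in the clustering, and 0 under RLE scaling or with cells of at least 500 UMIs. The cause of these moves was not tested, beyond the fewer cells or rats of some fits. For most of these fits the share of all genes called is not set beside the count.

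Signs turned where cells were left out. In the whole lung without alveolar macrophages the log2 fold change was 0.10 for Cdk1, 0.041 for Cenpf, 0.048 for Kif2c, 0.27 for Kif3a, 0.11 for Nusap1, -0.13 for Pcna, 0.52 for Tyms and 0.39 for Ccnb1, and without ciliated cells -0.38 for Aurkb. In the Slc39a2 cluster it was 0.84 for Bub1, 0.50 for Ccnb1, 0.30 for Cdk1, 0.15 for Cenpa, 0.80 for Cenpf, 0.26 for Cenpw, 1.01 for Kif20b, 1.09 for Kif22, 0.36 for Kif23, 0.56 for Kif2c, 0.33 for Kifc1, 0.59 for Mki67, 0.39 for Nusap1, 0.16 for Smc4, 0.40 for Ube2c, 0.33 for Tyms, 0.28 for Mcm2, 0.26 for Mcm3, 0.35 for Mcm4 and 0.64 for Mcm5. In the Retnlg cluster it was 0.69 for Cenpf, 0.21 for Kif20b and Nusap1, 0.56 for Mki67 and 0.45 for Smc4. With 1 rat left out the range was -0.16 to 0.14 for Tyms, -0.20 to 0.063 for Mcm2 and -0.20 to 0.092 for Mcm4 in the whole lung, and -0.31 to 0.030 for Mcm2 in alveolar macrophages.

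Rats with the same number did not deviate together (correlations of 0.147, -0.111 and -0.160 over 8710 genes), so that the replicate block, with 11 calls in the whole lung, is only an alternative. For shares no paired test was run. Groups of 3 rats limit every comparison, and members with few UMIs, such as Rrm2 with 72, could not show a moderate change. Thinned shares of cells with Top2a stayed lower in BLM-treated rats under every alternative, by 0.84 to 1.98 percentage points in the whole lung. Conventional dendritic cells had under 20 cells in some rat at 500 UMIs or with cell cycle genes in the clustering, and no value was obtained.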

Other observations

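Classes with too few cells for a test also held members. Fibroblasts, with 3, 15 and 29 control and 162, 711 and 195 BLM-treated cells, had Mki67 at 29.7, 15.7 and 17.7 CPM and Top2a at 1.65, 15.3 and 8.83 CPM in BLM-treated rats. The control fibroblasts were too few to give a level of either. In AT2 cells Top2a was 7.93, 20.9 and 52.0 CPM in control and 0, 20.6 and 14.2 in BLM-treated rats. Aurkb in ciliated cells was 1029, 2375 and 0 CPM in control rats, which had 7, 7 and 1 such cells, and 5849, 4971 and 5058 in BLM-treated rats. The cluster led by Ccl21 and Mmrn1, of which 190 of 241 cells came from BLM-treated rat 2, held 7 cells with Top2a, all from that rat.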
